A study of Rattus norvegicus with 4 samples.

Results

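Bone morphogenetic protein (BMP) ligands, ID genes and BMP-induced inhibitors were examined in cultured rat microvessels. The set holds 10 genes chosen by symbol, namely Id1, Id2, Id3, Id4, Smad6, Smad9, Bambi, Bmp2, Bmp4 and Bmp6, of 23608 gene entries in the deposited count table, and all 10 were found there. The cells were primary wild-type vascular cells from rat subcutaneous soft connective tissue, grown on an extracellular matrix labelled soft or stiff, without or with A83-01, a compound that blocks the kinases ALK4, ALK5 and ALK7, the type I receptors for activin, TGF-beta and nodal. Each of the 4 groups (soft, soft with A83-01, stiff, stiff with A83-01) was sequenced as 1 library. The labels give no stiffness value, inhibitor dose, treatment time or number of animals. The study asked how matrix stiffness and A83-01 act on microvessels and on pericytes that become myofibroblasts.

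BMPs are secreted dimers of the TGF-beta family that bind type I and type II serine/threonine kinase receptors, whose type I part phosphorylates SMAD1, SMAD5 and SMAD9. These enter the nucleus with SMAD4 and switch on the ID genes, the most widely used readout of the pathway. In vessels, endothelial cells respond to BMP through ALK1 and its co-receptor endoglin. ID proteins are helix-loop-helix proteins without a DNA-binding region, and they hold back the bHLH transcription factors that they pair with. SMAD6 and BAMBI are made in response to the signal and dampen it.

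Id1, Id2 and Id3 shared an order in which each was lower on stiff than on soft matrix and higher with A83-01 than without, so the bases before their transcription starts are shown. They are credited to RefSeq, assembly GRCr8, which is not the build the counts were made on (Rnor_6.0). Capitals mark the GC-rich SMAD elements GGCGCC and GGAGCC and the SMAD-binding letters GTCT, on either strand, in the 250 bases before the start.
Id1, chr3:161671314-161671563, plus strand: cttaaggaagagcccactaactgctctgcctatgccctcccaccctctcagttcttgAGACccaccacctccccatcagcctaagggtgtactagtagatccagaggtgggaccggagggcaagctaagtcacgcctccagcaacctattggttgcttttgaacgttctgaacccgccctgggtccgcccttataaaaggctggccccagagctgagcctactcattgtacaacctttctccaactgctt
Id2, chr6:47470996-47471245, minus strand: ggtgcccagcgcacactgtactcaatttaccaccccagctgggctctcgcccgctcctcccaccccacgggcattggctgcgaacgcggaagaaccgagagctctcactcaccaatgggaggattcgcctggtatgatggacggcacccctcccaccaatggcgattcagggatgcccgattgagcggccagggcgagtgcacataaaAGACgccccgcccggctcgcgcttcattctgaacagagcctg
Id3, chr5:153656041-153656290, plus strand: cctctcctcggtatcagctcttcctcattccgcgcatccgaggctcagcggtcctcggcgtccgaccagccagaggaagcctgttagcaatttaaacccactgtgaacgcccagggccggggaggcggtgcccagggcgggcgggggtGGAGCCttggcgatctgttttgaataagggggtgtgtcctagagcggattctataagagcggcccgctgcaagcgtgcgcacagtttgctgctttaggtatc
The search covered the 300 bases from 250 before to 50 after the start. A GC-rich element was found for Id2 (GGAGCC on the opposite strand, 31 bases after the start, outside the printed stretch) and for Id3 (GGAGCC, 102 bases before it), and none for Id1 in this window. Of 33469 RefSeq promoters of that length, 33.9% held GGCGCC or GGAGCC, 11.0% held GGCGCC and 88.8% held GTCT, so the matches are a description. The E-box CANNTG, found in 72.1% of promoters, was present once each for Id1 and Id2. The RefSeq entry of Id4 begins with the letters ATG of a start codon, so its window may not be the promoter. The table matched 8 of the 10 genes.

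Total counts per library ran from 32271844 to 33416200, and 13634 genes reached 1 CPM (read counts scaled to library size, normalised by the trimmed mean of M-values, TMM) in at least 1 library. Among the 10 genes, 8 reached it in all 4 libraries. Bmp4 reached it in stiff with A83-01 alone, the library where it was highest, and Smad9 in none. No group has a replicate, so a pair of libraries is compared without a test. Folds are ratios of CPM followed by their 95% binomial counting interval, which covers counting error only, and PCR copies could make it too narrow. Genes are called at least 2-fold apart where the log2 ratio with a prior count of 2 reaches 1 and that interval excludes equality. A test was possible only for each factor averaged over the other, 2 libraries against 2, with edgeR's quasi-likelihood method, additive terms for matrix and inhibitor, and 1 residual degree of freedom. Its residual is the difference between the 2 inhibitor responses, and the labels do not say that the libraries come from separate cultures, so its p-values may reflect technical spread alone. Stiff libraries are named in another form than soft ones in the labels, and a separate preparation, had there been one, could not be told apart from stiffness.

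Values are given in the order soft, inhibitor-treated soft, stiff, inhibitor-treated stiff wherever 4 stand in a row. As the label vascular cells implies, Cdh5 (VE-cadherin, an endothelial junction protein) was abundant, at 870, 886, 730 and 1325 CPM, and so was Pdgfrb (the pericyte PDGF receptor), at 1239, 881, 1591 and 1469 CPM. Fibroblast genes were abundant too, with Col1a1 at 39252, 17577, 69475 and 19079 CPM. The summed level of 11 endothelial markers was 1873, 1908, 1473 and 2555 CPM, and that of 12 pericyte and mural markers 3038, 2214, 10284 and 8663 CPM. Lymphatic endothelial markers (6) summed to 239, 443, 128 and 163 CPM, adipocyte markers (8) to 1451, 1104, 725 and 861, leukocyte and macrophage markers (7 measured) to 84.0, 130, 58.5 and 61.4, fibroblast markers (7 measured) to 53238, 41786, 72161 and 25463, and Schwann cell and nerve markers (6) to 61.3, 32.7, 298 and 78.1 CPM. A single gene led some of these sums: Pdpn, which fibroblasts also express, the lymphatic one (195, 397, 89.0 and 106 CPM), Lpl the adipocyte one (1397, 1016, 697 and 803 CPM) and Ncam1 the Schwann cell one (42.9, 19.3, 282 and 52.9 CPM). Col1a1, at the values above, led the fibroblast sum except in soft with A83-01, where Dcn was higher (21955 CPM). The sums could therefore run against most genes of a list. In stiff against soft the median log2 ratio was −0.58 for fibroblast and −0.17 for Schwann cell markers, with A83-01 on soft it was 0.60 for adipocyte markers, and in stiff against soft with A83-01 in both it was 0.23 for lymphatic markers. With A83-01 on stiff the fibroblast sum was lower, while its median log2 ratio was −0.08, with 2 genes at least 2-fold higher and 1 lower. Skeletal muscle markers (6) summed to at most 9.43 CPM and keratinocyte markers (5) to at most 0.701 CPM. Krt5, Krt14, Epcam, Cdh1, Pax7 and Cd3e had 0 counts in every library, and Cd74, Adipoq and Plin1 had 0 in stiff. In these bulk libraries, fewer cells of a type and less RNA per cell cannot be told apart.

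**Figure D1:**
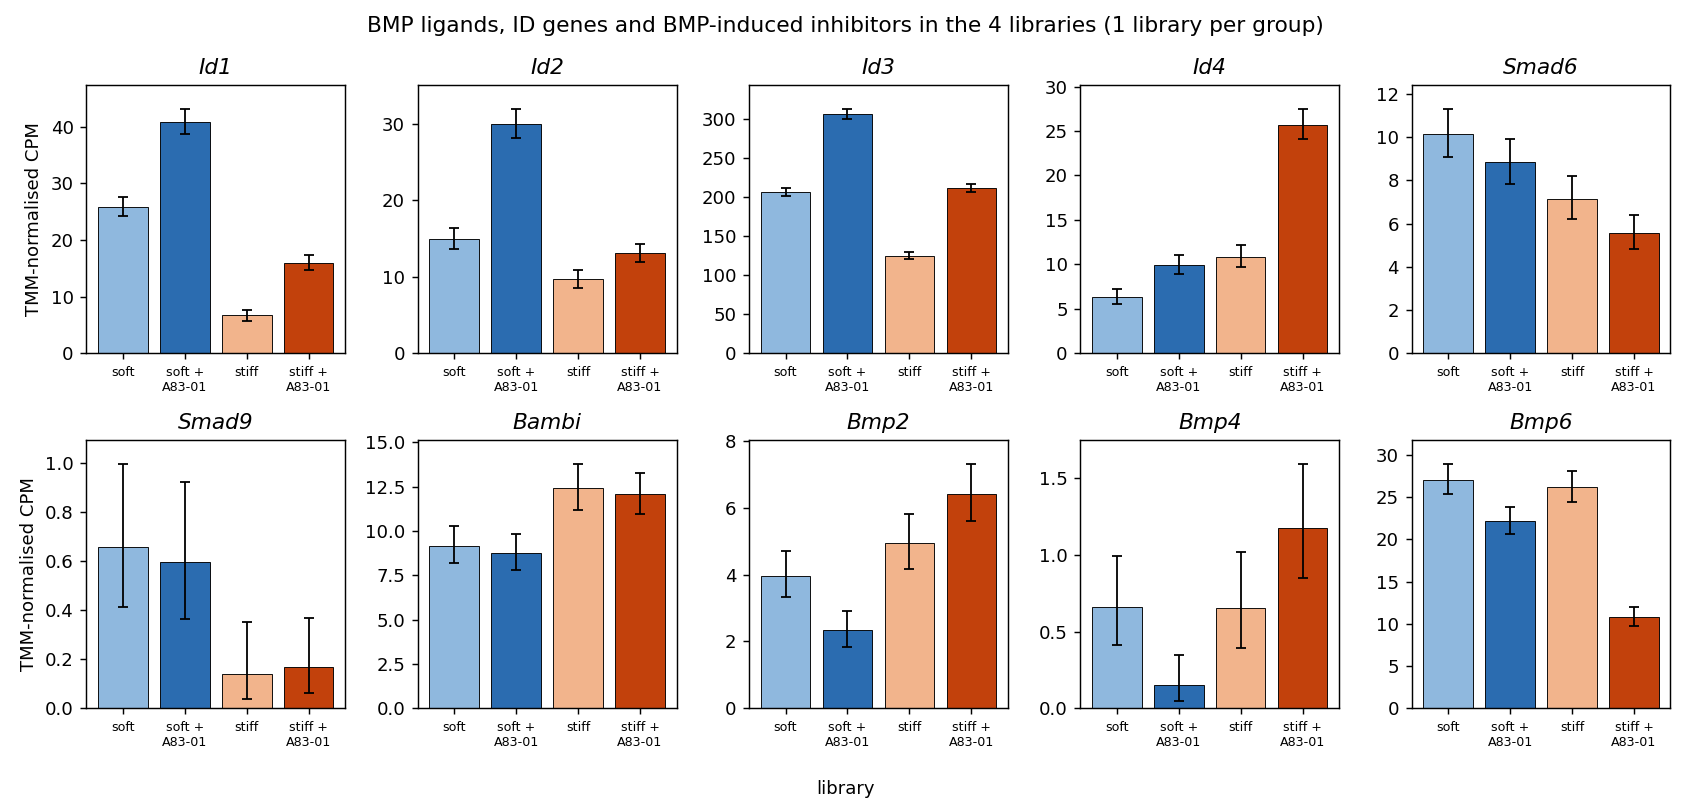
TMM-normalised CPM of the 10 genes in each library (1 bar per library, vertical axis from 0, error bars the exact 95% Poisson counting interval). Id1, Id2 and Id3 were lowest in stiff and highest in soft with A83-01, while Id4 was highest in stiff with A83-01 at 25.7 CPM.

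Id1, an ID gene used as a direct readout of BMP receptor activity, was lowest on stiff matrix. It stood at 25.9 CPM in soft, 40.9 in soft with A83-01, 6.67 in stiff and 15.9 in stiff with A83-01, so both soft libraries lay above both stiff ones and each inhibitor library above its untreated partner. It was 3.88-fold lower (3.32 to 4.56) in stiff than in soft, and 2.57-fold lower (2.33 to 2.84) with the inhibitor in both libraries. In the additive quasi-likelihood test Id1 fell on stiff matrix by 1.65 on the log2 scale (SE 0.203, edgeR, Benjamini-Hochberg adjusted p = 0.0242), the sole member of the set to pass, where 3.29% of all genes fell, 2.35% rose and 5.64% passed in either direction. Without the inhibitor in the model it did not pass (adjusted p = 0.225, the highest of 7 alternatives, which ran from 1.79e-06). With A83-01 it was 1.58-fold higher (1.45 to 1.72) on soft and 2.38-fold higher (2.02 to 2.82) on stiff matrix. The genes with the most similar centred pattern over the 4 libraries, out of 13633, were Adora2b, Hmgn3, Grik4 and AABR07035776.1, at root mean square distances of 0.0704 to 0.0862 on the log2 scale. Grik4 and AABR07035776.1 were near the floor in stiff, at 0.138 CPM each. Id2 was 379th and Id3 543rd in that order from Id1, while Id1 was 2223rd in the order from Id2 and 7577th in that from Id3.

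Id2 and Id3 had smaller stiffness differences in the same direction. Id2, which also acts in adipocyte and immune cell development, stood at 15.0, 30.0, 9.67 and 13.1 CPM. It was 1.55-fold lower (1.34 to 1.80) in stiff than in soft and 2.29-fold lower (2.05 to 2.57) with A83-01 in both. Id3, by far the most abundant ID gene, stood at 206, 306, 125 and 211 CPM, so stiff with A83-01 was close to untreated soft. Id3 was 1.65-fold lower (1.59 to 1.72) in stiff than in soft and 1.45-fold lower (1.41 to 1.49) with A83-01. Neither passed the additive test for stiffness over all genes: the log2 difference was −0.92 for Id2 (SE 0.200, edgeR adjusted p = 0.0737) and −0.63 for Id3 (SE 0.152, adjusted p = 0.0888). By other tools more ID genes passed for stiffness: DESeq2 called all 4 and limma-voom 3 of 4, and all 4 had an unadjusted p under 0.05 in edgeR. Of 13634 genes, DESeq2 called 1311 and limma-voom 1089 for stiffness, and 3449 had an unadjusted p under 0.05 in edgeR. Over 7 alternatives the adjusted p ran from 0.00867 to 0.288 for Id2 and from 0.0110 to 0.414 for Id3.

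Id4, an ID gene best known from neural and bone-forming precursors, had the opposite stiffness difference. It stood at 6.36, 9.97, 10.9 and 25.7 CPM, with untreated stiff and soft with A83-01 close to each other. It was 1.71-fold higher (1.43 to 2.04) in stiff than in soft and 2.58-fold higher (2.27 to 2.93) with A83-01 in both. The additive log2 difference for stiffness was 1.08 (SE 0.213, edgeR adjusted p = 0.0611), which did not pass, and the adjusted p ran from 0.0191 to 0.308 over 7 alternatives. In the authors' FPKM, which also scales by transcript length, Id4 made up 1.55%, 1.55%, 4.52% and 6.09% of the summed ID level, while Id1 made up 10.7%, 10.8%, 4.70% and 6.39% and Id3 between 77.3% and 83.9%. The summed ID FPKM was 209, 326, 104 and 224. The mural marker sum was higher in both stiff libraries, as Id4 was, with median log2 ratios over its 12 genes of 1.26 and 2.06 without and with A83-01. The list was not uniform: 6 genes were at least 2-fold higher without A83-01 and 8 with it. Pdgfrb, Cspg4, Mcam and Abcc9 differed by less than 2-fold in both pairs. Acta2 was the largest gene of the sum in both stiff libraries (3690.5 and 2428.2 CPM). The part of this sum in the Id4 differences was not tested.

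All 4 ID genes were higher with A83-01 on both matrices, under each of the 6 alternative scalings, prior counts and units tried, and none passed the additive test for the inhibitor in edgeR, DESeq2 or limma-voom. On soft matrix the folds were 1.58 for Id1, 2.0 for Id2 (1.80 to 2.24), 1.48 for Id3 (1.44 to 1.53) and 1.57 for Id4 (1.32 to 1.87). On stiff matrix they were 2.38 for Id1, 1.35 for Id2 (1.16 to 1.57), 1.69 for Id3 (1.63 to 1.76) and 2.37 for Id4 (2.08 to 2.70). Id1 and Id4 were thus called at least 2-fold higher on stiff matrix, where 7.8% of all genes were. On soft matrix, where 2.18% of all genes were called higher, no ID gene was, and Id2 lay at the limit with a log2 ratio of 1.00, past it under other scalings and by FPKM. In the additive quasi-likelihood test the log2 differences with A83-01 were 0.94 (Id1, SE 0.200), 0.73 (Id2, SE 0.200), 0.66 (Id3, SE 0.152) and 0.95 (Id4, SE 0.213), with edgeR adjusted p = 0.201, 0.272, 0.219 and 0.213. All 4 had an unadjusted p under 0.05. That test called 6 genes in all for the inhibitor, 0.044% of those tested, while 1812 genes had an unadjusted p under 0.05. With total-count scaling alone it called 565 genes up and 270 down, and Id1, Id3 and Id4 passed (adjusted p = 0.00798, 0.00845 and 0.0186, each the lowest of 7 alternatives, whose highest was 0.998 for all 3). That scaling moved the median log2 ratio of all genes by 0.282 for A83-01 on stiff and by −0.232 for stiff against soft, and turned the split of genes 2-fold apart from 1064 higher and 609 lower to 1656 and 393 for A83-01 on stiff, and from 727 and 1170 to 528 and 1601 for stiff against soft. The endothelial marker sum was also higher with A83-01 on stiff matrix, at 2555 against 1473 CPM, and differed less on soft, at 1908 against 1873 CPM. Cdh5 was its largest gene in every library. The median log2 ratio over 11 genes was 0.86 on stiff, with 3 at least 2-fold higher and 0 lower, and 0.15 on soft. Vwf and Plvap were lower with A83-01 on stiff (log2 −0.74 and −0.51), while the other genes of the list were higher. Vwf and Plvap also fell on stiff matrix in the additive test (edgeR adjusted p = 0.0217 and 0.0270). The part of this sum in the ID values was not tested.

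**Figure D2:**
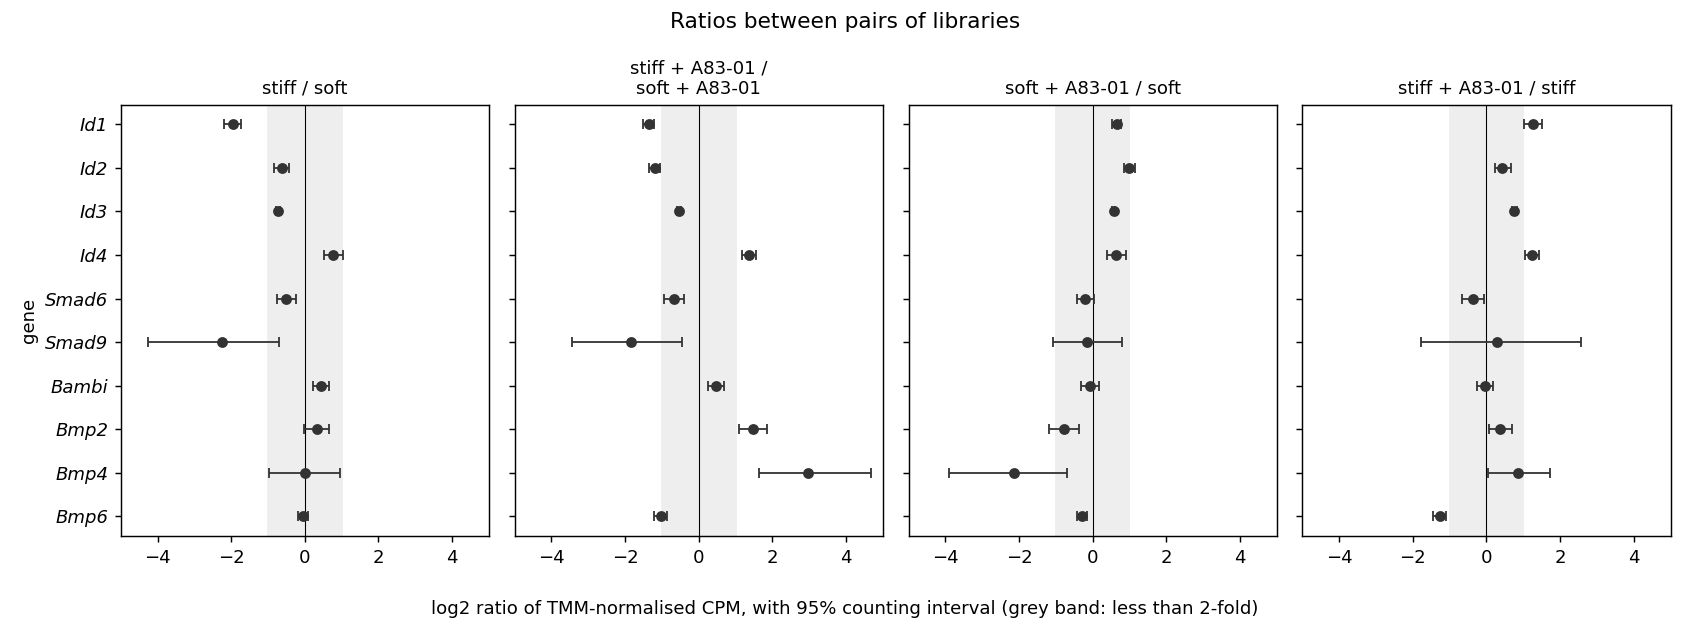
Log2 ratio of TMM-normalised CPM for each gene (rows) in 4 pairs of libraries (panels), with the 95% counting interval and a grey band for differences under 2-fold. The 4 ID genes lie to the right of 0 in both A83-01 panels, and Id4 lies opposite to Id1, Id2 and Id3 in both stiffness panels.

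For Id2 the counts and the authors' FPKM differed in how far the libraries lay apart. Its CPM by total counts divided by its FPKM was 1.18 in soft, 0.925 in soft with A83-01, 1.19 in stiff and 0.924 in stiff with A83-01, a spread of 1.29-fold. For Id1, Id3, Id4, Smad6, Bambi, Bmp2 and Bmp6 the spread was at most 1.02-fold. For the low-count genes Bmp4 and Smad9 it was 1.23-fold and 1.15-fold. By FPKM, Id2 therefore stood at 13.1, 33.7, 7.13 and 15.1, and its log2 ratio with A83-01 was 1.36 on soft and 1.07 on stiff matrix, in place of 1.00 and 0.43 from counts. The cause was not tested.

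For the inhibitory genes Smad6 and Bambi, the ratio with A83-01 had an interval that included equality in 3 of 4 cases. Smad6, which encodes an inhibitory SMAD strongly expressed in endothelium, stood at 10.2, 8.83, 7.16 and 5.55 CPM, lower in both stiff libraries and slightly lower with A83-01. It was 1.42-fold lower (1.19 to 1.70) in stiff than in soft and 1.59-fold lower (1.32 to 1.91) with the inhibitor in both. With A83-01 it was 1.15-fold lower on soft, with an interval that included equality (0.981 to 1.35), and 1.29-fold lower (1.06 to 1.57) on stiff. The latter, a log2 ratio of −0.36, moved to −0.08 with total-count scaling and −0.07 by FPKM. Bambi, a decoy receptor without a kinase region, stood at 9.17, 8.74, 12.4 and 12.1 CPM, higher in both stiff libraries. It was 1.35-fold (1.16 to 1.58) and 1.38-fold (1.19 to 1.61) higher on stiff matrix without and with A83-01. With A83-01 its ratio was 0.953 (0.810 to 1.12) on soft and 0.971 (0.843 to 1.12) on stiff, and the latter turned to a log2 ratio of 0.24 with total-count scaling and 0.25 by FPKM. Neither gene passed the additive test for stiffness (edgeR adjusted p = 0.156 for Smad6 and 0.194 for Bambi) or for A83-01 (adjusted p = 0.588 and 0.919). Smad9, a receptor-regulated SMAD, had 22, 20, 4 and 6 counts and was not tested. Its CPM was 4.78-fold lower (1.62 to 19.1) in stiff than in soft and 3.55-fold lower (1.37 to 10.8) with A83-01 in both, and these calls depended on the prior count and the unit.

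Bmp6 was the main BMP ligand transcript of the 3, and was lowest where stiff matrix and A83-01 were combined. Bmp6, an endothelial ligand known for iron control in the liver, stood at 27.1, 22.2, 26.2 and 10.8 CPM. With TMM scaling, untreated soft and stiff were alike within counting error. The ratio of stiff to soft was 0.967 (0.877 to 1.07), while stiff with A83-01 was 2.05-fold lower (1.81 to 2.32) than soft with A83-01 and 2.42-fold lower (2.14 to 2.74) than untreated stiff. Without the inhibitor, the log2 ratio of stiff to soft was −0.05 with TMM, −0.28 with total-count scaling and −0.29 by FPKM. Bmp6 was 1.22-fold lower (1.11 to 1.35) with A83-01 on soft matrix. Both 2-fold calls were lost with total-count scaling and by FPKM, with log2 ratios of −0.99 and −0.97 for A83-01 on stiff and −0.99 and −0.96 for stiff against soft with it. The difference between the inhibitor's log2 ratios on stiff and on soft was −0.98 (counting interval −1.21 to −0.76), and 10.2% of all genes differed by at least 1 in either direction. By FPKM it made up 91.8%, 94.8%, 90.0% and 72.7% of the sum of Bmp2, Bmp4 and Bmp6. Bmp6 passed the additive test for neither factor (edgeR adjusted p = 0.294 for stiffness and 0.343 for A83-01).

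Bmp2 and Bmp4, close relatives that share receptors and drive bone formation and vascular calcification, were lower with A83-01 on soft and higher with it on stiff matrix. Bmp2 stood at 3.97, 2.33, 4.95 and 6.42 CPM. It was 1.71-fold lower (1.28 to 2.29) with A83-01 on soft and 1.30-fold higher (1.05 to 1.61) on stiff matrix. Stiff was 1.25-fold higher than soft without the inhibitor, with an interval that included equality (0.978 to 1.59), and 2.76-fold higher (2.13 to 3.62) with it. Bmp4 had 22, 5, 19 and 42 counts, or 0.657, 0.149, 0.654 and 1.18 CPM, so its folds are imprecise. It was 4.40-fold lower (1.63 to 14.9) with A83-01 on soft and 1.80-fold higher (1.03 to 3.28) on stiff, and 7.90-fold higher (3.13 to 25.6) in stiff with A83-01 than in soft with A83-01. The differences between the inhibitor's log2 ratios, stiff minus soft, were 1.13 (0.624 to 1.63) for Bmp2 and 2.57 (0.964 to 4.17) for Bmp4, and with no replicates they were not tested. Of all genes, 10.2% differed by at least 1 in either direction, a share set beside Bmp2 only. Bmp4 reached the minimum only in stiff with A83-01, a library that enters its difference. Neither gene passed the additive test for stiffness (edgeR adjusted p = 0.221 for Bmp2 and 0.416 for Bmp4) or for A83-01 (adjusted p = 0.868 and 0.890). The 4 genes with the pattern most like Bmp4 were Fuom, Klhl29, Stac and Epor, at distances of 0.171 to 0.187, and Bmp2 was 22nd of 13633 at 0.438. In the order from Bmp2, Bmp4 was 2329th.

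Per pair, the 10 genes were called at least 2-fold apart as follows, beside the share of all genes. In stiff against soft, Id1 was lower and none of the 9 genes at the minimum was higher, where 8.58% and 5.33% of all genes were, and Smad9, under the minimum, was lower. With A83-01 in both, Id1, Id2 and Bmp6 were lower (6.72% of all genes) and Id4 and Bmp2 higher (6.88%), again beside Smad9. Bmp4 was called higher too, but it reached the minimum only in stiff with A83-01, so its call is not set against that share. With A83-01 on soft, 2.44% of all genes were lower and 4.61% were apart in either direction. Bmp4 alone of the 10 genes was called, as lower. It was under the minimum in both soft libraries, so its call is not set against those shares. With A83-01 on stiff, Bmp6 was lower (4.47%) and Id1 and Id4 were higher. Pairs that share a library are not independent. Within a library, FPKM ranked Id3 first, at 170, 252, 87.1 and 181, and Bmp2, Bmp4 and Smad9 in the last 3 places in every library, with Bmp2 between 0.599 and 1.73 FPKM and Smad9 at most 0.0952.

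**Figure D3:**
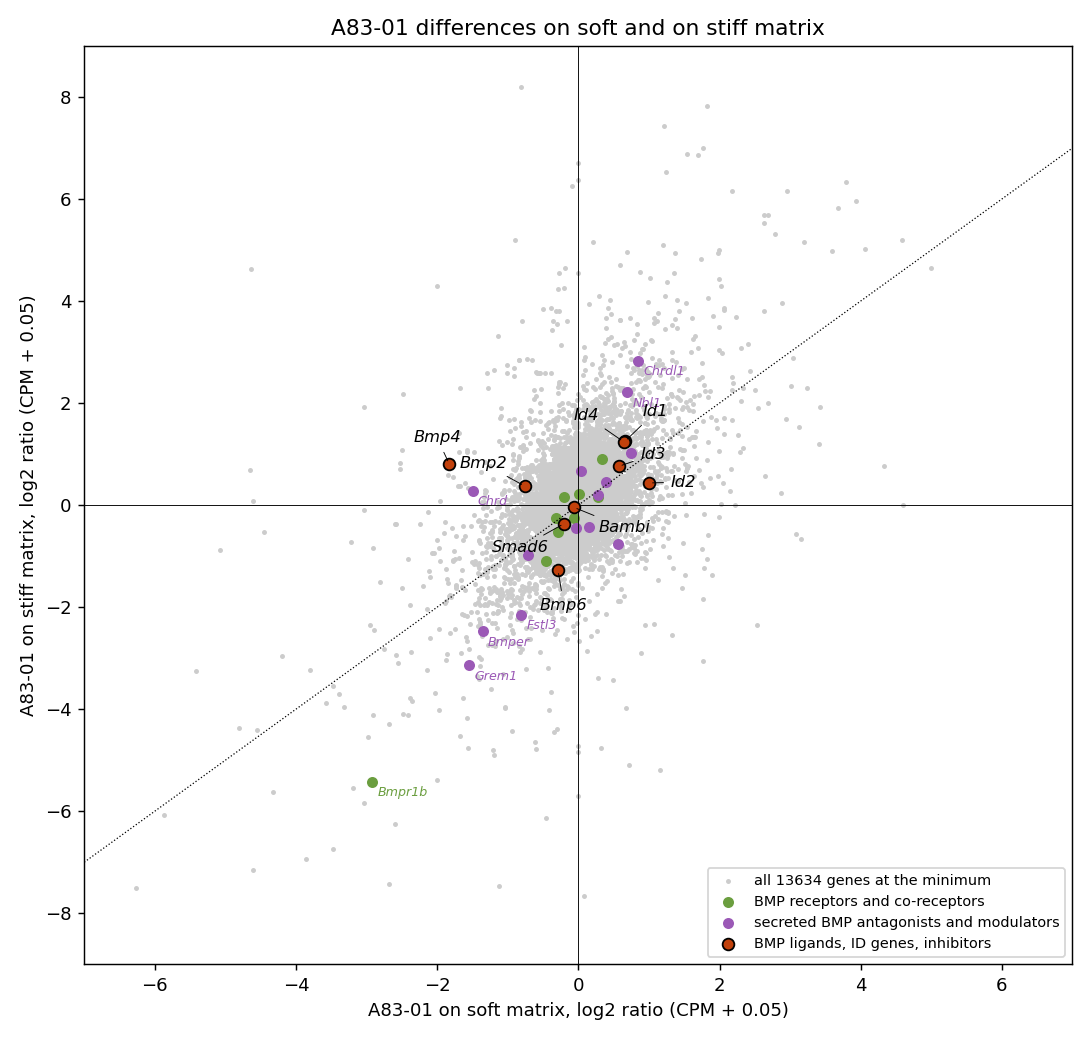
Log2 ratio of CPM plus a pseudocount of 0.05 with A83-01 against none on soft (horizontal) and on stiff matrix (vertical) for each of 13634 genes (grey), the BMP set (orange), receptors (green) and secreted antagonists (purple). The dotted line marks equal differences. The 4 ID genes lie in the upper right quadrant, and Bmp2 and Bmp4 in the upper left.

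Of 12 further BMP and GDF ligand genes, 2 reached the minimum. None passed the additive edgeR test for either factor, nor DESeq2 or limma-voom, and 1 had an unadjusted p under 0.05 for stiffness and 0 for A83-01. Counts for this and the following lists stand beside those over all 13634 genes. An unadjusted edgeR p was under 0.05 in 3449 for stiffness and 1812 for A83-01. DESeq2 called 1311 and 463, and limma-voom 1089 and 3. Gdf10, which encodes BMP3B, had 458 counts in soft, 1060 in soft with A83-01, 0 in stiff and 305 in stiff with A83-01. It was at least 133-fold lower in stiff than in soft, against a floor of 3 counts in the stiff library, and 2.31-fold higher (2.07 to 2.59) with A83-01 on soft. Bmp3, a ligand that opposes other BMPs, was 2.69-fold higher (1.73 to 4.27) in stiff than in soft and 4.29-fold lower (2.58 to 7.45) with A83-01 on stiff. Gdf2, which encodes the circulating endothelial ligand BMP9, had 0 counts in all 4 libraries, as had Bmp10.

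Of 11 receptor and co-receptor genes, 10 reached the minimum and 0 passed the additive edgeR test. For stiffness 1 had an unadjusted p under 0.05 and 0 passed by DESeq2 or limma-voom, and for A83-01 these numbers were 3, 1 by DESeq2 and 0 by limma-voom. Their median log2 ratio was 0.13 in stiff against soft and −0.25 with A83-01 on stiff, beside 0.00 and 0.02 over all genes. Acvrl1, which encodes the endothelial receptor ALK1, stood at 96.9, 77.6, 138 and 117 CPM, above the soft level in both stiff libraries (log2 0.55, SE 0.129, edgeR adjusted p = 0.0847). Endoglin, Eng, stood at 438, 382, 413 and 459 CPM, and the type II receptor gene Bmpr2 at 39.6, 32.5, 51.8 and 35.9 CPM. The type I receptor gene Acvr1 was 2.15-fold lower (1.99 to 2.33) with A83-01 on stiff. Bmpr1b, another type I receptor gene, had 79, 9, 61 and 0 counts. It was 8.79-fold lower (4.40 to 19.9) with A83-01 on soft and at least 24.9-fold lower on stiff. The low-count type II receptor gene Acvr2b was 2.32-fold lower (1.16 to 4.94) in stiff than in soft.

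Secreted antagonists differed with stiffness in both directions. Of 19 antagonists and modulators, 14 reached the minimum. By the additive quasi-likelihood test Chrd and Crim1 rose and Nog fell on stiff matrix, while 0 passed for A83-01 (8 with an unadjusted p under 0.05, 6 by DESeq2, 0 by limma-voom). Noggin, Nog, which binds and blocks BMP2 and BMP4, stood at 7.80, 8.66, 0.998 and 0.729 CPM and fell by 3.26 on the log2 scale (SE 0.309, edgeR adjusted p = 0.0149). Chordin, Chrd, which blocks the same ligands, stood at 2.03, 0.686, 10.3 and 12.5 CPM and rose by 3.17 (SE 0.494, edgeR adjusted p = 0.0372). Crim1, a transmembrane BMP-binding protein, rose by 0.83 (SE 0.128, edgeR adjusted p = 0.0369), at 66.9, 80.9, 122 and 141 CPM. Grem1, an antagonist made by fibroblasts and mural cells, differed with the inhibitor, at 48.1, 16.5, 84.9 and 9.57 CPM. It was 2.92-fold lower (2.65 to 3.22) with A83-01 on soft and 8.87-fold lower (7.92 to 9.96) on stiff (additive log2 −2.34, SE 0.413, edgeR adjusted p = 0.161). Bmper, Chrdl1 and Nbl1, singled out after their values were seen, had log2 ratios with A83-01 of −1.35, 0.84 and 0.69 on soft and −2.47, 2.83 and 2.21 on stiff.

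None of 8 further SMAD and SMAD-turnover genes passed the additive test for either factor by edgeR, DESeq2 or limma-voom, and 3 had an unadjusted p under 0.05 for stiffness and 1 for A83-01. Smad1 stood at 91.2, 94.9, 88.8 and 134 CPM and Smad5, also a BMP-activated SMAD, at 39.4, 42.7, 36.9 and 39.7 CPM. Smad7, an inhibitory SMAD induced by TGF-beta and BMP, stood at 16.4, 10.9, 12.5 and 7.13 CPM, lower with A83-01 on both matrices (1.51-fold, 1.32 to 1.73, and 1.76-fold, 1.49 to 2.07; additive log2 −0.70, SE 0.174, edgeR adjusted p = 0.236). Smad3, which carries the TGF-beta signal, was 2.05-fold lower (1.90 to 2.20) in stiff than in soft and 1.26-fold lower (1.19 to 1.33) with A83-01 in both.

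Of 14 other BMP-responsive genes, 10 reached the minimum and 0 passed the additive edgeR test (unadjusted p under 0.05 in 2 for stiffness and 4 for A83-01; DESeq2 called 0 and 1, limma-voom none), with median log2 ratios of 0.01 and 0.02 for A83-01 on soft and stiff. In stiff against soft, 7 of the 10 were higher, with a median of 0.51, and with A83-01 in both the median was 0.21, beside 0.00 and 0.01 over all genes. Atoh8, an endothelial bHLH gene that responds to ALK1, stood at 18.8, 22.7, 8.33 and 26.1 CPM, lowest in stiff as Id1 was. Tmem100, another ALK1-dependent endothelial gene, stood at 3.08, 12.3, 10.0 and 14.8 CPM, lowest in untreated soft. Runx2 and Alpl, genes of bone formation, were 4.00-fold (3.60 to 4.46) and 3.55-fold (2.60 to 4.90) lower with A83-01 on stiff. Among 7 bHLH genes that can pair with or be held back by ID proteins, 6 reached the minimum, and Twist2 fell on stiff matrix (log2 −1.47, SE 0.192, edgeR adjusted p = 0.0270) while 0 passed for A83-01, also by DESeq2 and limma-voom and at an unadjusted p under 0.05. Tcf15 had 22, 17, 19 and 76 counts, highest in stiff with A83-01. The E-protein genes Tcf3, Tcf4 and Tcf12, the main partners of ID proteins, named after their values were seen, differed by less than 2-fold in every pair.

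TGF-beta target genes are switched on through the receptors that A83-01 blocks. Of 8, 5 were at least 2-fold lower with A83-01 on soft and 6 on stiff, where 2.44% and 4.47% of all genes were, with medians of −1.17 and −1.48 on the log2 scale, and 0 passed the additive edgeR test for A83-01 (7 with an unadjusted p under 0.05, 5 by DESeq2, 0 by limma-voom). Ctgf, the matricellular CCN2, was 3.72-fold lower (3.37 to 4.11) on soft and 3.76-fold lower (3.67 to 3.85) on stiff with the inhibitor. Tgfbi was 2.07-fold (1.87 to 2.29) and 15.6-fold (14.8 to 16.5) lower, Ltbp2 2.47-fold (2.37 to 2.57) and 1.89-fold (1.76 to 2.04) lower, and the cytokine gene Il11 2.69-fold (2.04 to 3.59) and 2.55-fold (1.27 to 5.38) lower. In stiffness, Ctgf rose and Ltbp2 and Il11 fell by the additive test, so the list had no single direction there.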

How the data were processed

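Counts of 4 mRNA libraries of primary rat microvascular cells, 1 per group, were analysed. Per the labels' protocols, RNA was extracted with Trizol, selected with oligo(dT) beads and sequenced in pairs on a DNBSEQ-T7, with no strand-marking step or molecular identifiers mentioned. The authors deposited whole-number read counts per gene, not normalised, and FPKM values, which are scaled by length and by each library's total. Per the submitters' processing notes, HISAT2, edgeR and the build Rnor_6.0 were used. For the counter and the annotation, the sources used here give no name.

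Groups came from the sample titles. TMM factors were 1.03, 1.04, 0.876 and 1.07 (soft, soft with A83-01, stiff, stiff with A83-01), and a floor of 3 counts was 0.0842 to 0.103 CPM. Genes with at least 1 CPM in 1 library were kept. Library pairs were compared by log2 ratios (prior count 2) with Clopper-Pearson intervals at 95%. The additive edgeR model (common dispersion 0.0351) used Benjamini-Hochberg adjustment at 0.05. R 4.3.3, edgeR 4.0.16, limma 3.58.1 and DESeq2 1.42.0 were used, and the scripts were tested on simulated data. Differences between inhibitor responses had delta-method counting intervals. Alternatives were other scalings, filters, prior counts, FPKM plus 0.1, DESeq2, limma-voom and a model without the other factor. The genes and lists (further ligands, receptors, antagonists, SMADs, BMP-responsive genes, bHLH partners, TGF-beta targets and cell markers) were chosen with earlier results of these data known. Beyond the 10 genes, up to 4 genes per list were named, those passing the additive test first and then those called in most pairs, plus Acvrl1, Bmpr2, Eng, Smad1, Smad5, Smad7, Nog, Grem1, Cdh5 and Pdgfrb. The 4 genes nearest in pattern were named for Id1 and Bmp4. Some results for single genes are not reported here.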

Additional observations from a re-analysis of the deposited data

Results flagged for a closer look

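Bmp2 and Bmp4 had inhibitor differences of opposite direction on the 2 matrices, each with a counting interval that excluded equality. The ratio of Bmp2 with A83-01 to without was 0.586 on soft and 1.30 on stiff matrix. For Bmp4 it was 0.227 on soft and 1.80 on stiff, from 5 and 22 counts on soft and 42 and 19 on stiff. With 1 library per group the difference between the matrices was not tested. Of all genes, 10.2% had inhibitor log2 ratios that differed between the matrices by at least 1 in either direction. That share is set beside Bmp2 only, because Bmp4 reached the minimum only in stiff with A83-01, a library that enters its difference.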

How the results depend on the processing

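For stiffness, the additive quasi-likelihood test called 769 genes. It called 1758 with total counts alone, 30 without the inhibitor in the model and 1311 by DESeq2, and the other 4 alternatives stayed within 1.5 times. For A83-01 it called 6, against 0 with RLE factors (DESeq2's scaling), 835 with total counts alone (565 up, 270 down), 27 without a filter on low counts, 0 without stiffness in the model, 463 by DESeq2 and 3 by limma-voom. Genes 2-fold apart with A83-01 on soft numbered 629, and 1064 without a filter. By FPKM the split was 484 higher and 1484 lower for stiff against soft, and 1552 and 358 for A83-01 on stiff. For the 10 genes, 124 additive values were recomputed. The log2 difference with A83-01 reversed to 0.093 for Bambi with total counts alone and to 0.022 for Bmp4 without stiffness in the model. Id1 lost its stiffness call in 1 of 7 alternatives. For stiffness, Id2 passed in 3 of 7, Id3 in 2 and Id4 in 4. Of 240 recomputed pair values, 224 stayed on their side of 2-fold and 3 changed sign (Bmp4 in stiff against soft, Bambi with A83-01 on stiff). Bmp6 with A83-01 on stiff went from a log2 ratio of −1.27 to −0.99 with total counts and −0.97 by FPKM, under the 2-fold limit, and Id3 from 0.76 to 1.04 and 1.06, past it. No paired analysis was possible because each group holds 1 library. Leaving out a library leaves the additive model no residual degree of freedom, and was not run. Depth limits Bmp4 (5 to 42 counts) and Smad9 (4 to 22).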
